A study of Mus musculus with 342 samples.

Results

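The proteasome genes of mouse liver were taken as every gene whose platform symbol starts with Psma, Psmb, Psmc, Psmd, Psme, Psmf or Psmg followed by a digit, and 43 of the 9093 genes measured met that rule. Of these 43 genes, 41 encode proteasome subunits, regulators or assembly factors. The other two, Psmc3ip and Psme3ip1, match by name alone: Psmc3ip acts in meiotic recombination, and Psme3ip1 encodes a protein that binds the nuclear activator Psme3. Psma3, Psma8, Psmb3, Psmb11, Psmc6, Psmd10, Psme2b and Psme4 were not measured here.

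The mice were males of 44 inbred Collaborative Cross lines, derived by intercrossing genetically diverse founder strains, and were about 8 to 10 weeks old. A TAK-875 mouse (1 dose of 600 mg/kg, by gavage) was matched with a vehicle mouse of its own line (0.5% methylcellulose), and every liver was harvested 24 hours after the dose. TAK-875 (fasiglifam) is an agonist of the fatty acid receptor GPR40. The sample labels name TAK-875, while the series title carries a different compound number. RNA of each liver was hybridised to 1 Affymetrix array, which gave 342 arrays in 171 matched pairs, with 4 pairs in 39 lines and 3 pairs in 5 lines.

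The proteasome degrades proteins tagged with ubiquitin. Its barrel, the 20S core, is built of outer alpha rings and inner beta rings, with the proteolytic sites in the beta subunits Psmb5, Psmb6 and Psmb7, and its 19S regulator consists of a base that unfolds substrates and a lid that removes ubiquitin. Cells exposed to interferon, and immune cells in the resting state, replace the catalytic subunits by the immunosubunits Psmb8, Psmb9 and Psmb10 and make the PA28 activator Psme1-Psme2, which alters the peptides available for antigen presentation. Most of the subunit genes are switched on together when proteasome activity falls short, through the transcription factor encoded by Nfe2l1.

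The direction of change split along that division. The promoters of 3 members are printed here: Psmb5 and Psmd9, among the 3 members with the largest rises, and Psmb8, with the largest fall. They were picked with their values known. Psmb4, which had the largest rise of all members, is not printed and is not among the genes named below with a motif match. Each sequence is the 250 bases before the gene's start in RefSeq (GRCm38.p6), read along the gene's strand. Capitals mark a match to a motif: TGACNNNGC, the core of the antioxidant response element, in Psmb5 and Psmd9, and TTCNNNGAA, the gamma-activated site, in Psmb8. The Psmb5 stretch is chr14:54617996-54618245 (minus strand), that of Psmd9 is chr5:123227940-123228189 (plus strand) and that of Psmb8 is chr17:34197945-34198194 (plus strand).
Psmb5: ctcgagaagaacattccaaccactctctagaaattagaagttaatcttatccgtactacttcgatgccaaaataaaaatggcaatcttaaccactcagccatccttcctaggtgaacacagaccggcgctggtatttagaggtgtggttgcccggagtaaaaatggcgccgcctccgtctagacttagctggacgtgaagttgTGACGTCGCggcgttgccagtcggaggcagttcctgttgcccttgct
Psmd9: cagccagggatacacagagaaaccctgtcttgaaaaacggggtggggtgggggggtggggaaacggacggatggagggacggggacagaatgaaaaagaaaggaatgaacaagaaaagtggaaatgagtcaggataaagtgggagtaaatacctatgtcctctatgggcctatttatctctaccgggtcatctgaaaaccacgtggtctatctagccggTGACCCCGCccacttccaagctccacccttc
Psmb8: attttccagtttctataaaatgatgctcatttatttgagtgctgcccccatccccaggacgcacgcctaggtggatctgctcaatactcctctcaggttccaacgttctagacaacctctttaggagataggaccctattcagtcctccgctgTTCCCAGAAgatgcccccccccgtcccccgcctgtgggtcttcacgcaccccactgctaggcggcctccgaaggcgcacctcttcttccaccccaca

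Both strands of 300-base windows, the printed 250 bases and the following stretch past the start, were searched, and 36 of the 43 members had such a window, 40 windows in all. TGACNNNGC occurred in 4 of the 40 windows (10.0%), those of Psmb5, Psmb6, Psmd12 and Psmd9, against 12.4% of all 32851 windows. TTCNNNGAA occurred in 3 (7.5%), those of Psmb8, Psmd2 and Psmg1, against 8.3% of all windows. The core of the interferon-stimulated response element, a pair of GAAA with any 2 bases between, occurred in 4 (10.0%), those of Psmd4, Psmd9, Psme1 and Psmg4, against 3.44% of all windows. Psmd9 alone held 2 of the motifs, which did not overlap, and a match describes the letters of these windows and no binding.

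Values are log2 expression values, so a difference of 1 is a doubling of the measured signal, and levels of different genes were not compared, since each probe set has its own brightness. The 44 line means of the pair differences (TAK-875 minus vehicle) were tested against 0 with limma, and a gene was called at a Benjamini-Hochberg adjusted p below 0.05 over all 9093 genes. With TAK-875, 29 of the 43 members rose, 5 fell and 9 did not pass the test. Over all genes 15.2% rose and 11.8% fell, 27.0% in either direction. The median change was 0.11 over the 43 members and 0.01 over all genes. Changes were small: no member reached 1.5-fold in either direction, and the median size among the 34 called members was 0.15. Bulk liver RNA cannot tell fewer cells of a type from less RNA per cell.

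The arrays' medians lay between 5.40 and 6.22. For each array, the median correlation with the other arrays of its line and dose was taken. Its median over the arrays was 0.976, and 6 arrays, all of TAK-875 mice, lay below 0.92. Without the pairs of these arrays, 32 members rose and 3 fell. The 9 hepatocyte markers (Alb, Apoa1 and others) had a mean level of 12.8 to 13.3 in vehicle and in TAK-875 mice, 2 of them rose and 1 fell, so the labelled tissue carried its defining markers in every library. Of the macrophage markers 11 of 13 fell, and their values are given beside the immunosubunits.

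The alpha ring, which gates the barrel, rose in 5 of its 6 measured genes, with a median change of 0.16. Psma7 rose by 0.19 ± 0.14 (SD over 44 lines), Psma5 by 0.18 ± 0.21, Psma6 by 0.17 ± 0.12, Psma2 by 0.15 ± 0.12 and Psma1 by 0.12 ± 0.23. Psma4 changed by 0.03 ± 0.19 and did not pass (adjusted p = 0.551). Psma2 was higher in 42 of 44 lines, Psma6 in 41 and Psma7 in 40, while Psma4 was higher in 20 and lower in 24. A second probe set of Psma7 rose as well, by 0.24 ± 0.15. Psma1 lost its call without replicate 1, the pairs numbered 1 within their line in the labels.

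The constitutive beta ring rose in 5 of 6 measured genes, with a median change of 0.14. Psmb4, a structural subunit that helps to close the ring, had the largest rise of all members. Its level ran from 9.98 over a median of 10.85 to 11.74 in the 171 vehicle mice and from 10.53 over 11.11 to 11.65 in the 171 TAK-875 mice. The TAK-875 range lay inside the vehicle range, with a higher median. The rise of Psmb4 was 0.25 ± 0.13, or 1.19-fold (adjusted p = 5.8e-12), and 41 of 44 lines showed it.

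Psmb5 encodes the chymotrypsin-like site. Its vehicle levels had a lowest value of 5.34, a median of 7.83 and a highest of 8.69, and its TAK-875 levels 6.47, 8.00 and 8.67. The groups overlapped, with 1 vehicle array far below the rest. Psmb5 rose by 0.21 ± 0.24 (1.16-fold, adjusted p = 1.0e-05), in 36 of 44 lines.

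Psmb6, the caspase-like site, ran from 9.49 over 10.77 to 11.35 in vehicle mice and from 9.75 over 10.88 to 11.35 in TAK-875 mice. It rose by 0.13 ± 0.14 (adjusted p = 2.3e-05), in 35 lines. Psmb7, the trypsin-like site, ran from 8.19 over 9.89 to 10.39 and from 8.14 over 9.91 to 10.45. Both genes had low arrays in both treatments, and their groups overlapped over nearly the whole range. Psmb7 changed by 0.04 ± 0.15 and did not pass (adjusted p = 0.214). The structural subunits Psmb1 and Psmb2 rose by 0.14 ± 0.11 and 0.15 ± 0.12, in 41 and 40 lines.

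In the 19S base, 7 of 8 measured genes rose, with a median change of 0.14. Of the ATPases that unfold substrates, Psmc4 rose by 0.21 ± 0.20, Psmc3 by 0.17 ± 0.11, Psmc1 by 0.09 ± 0.15, Psmc2 by 0.09 ± 0.17 and Psmc5 by 0.08 ± 0.11. Psmd4, a ubiquitin receptor, rose by 0.19 ± 0.13, and the scaffold gene Psmd2 by 0.16 ± 0.16. Psmc3 was higher in 42 of 44 lines and Psmd4 in 41. Second probe sets of Psmc4 and Psmd4 rose too, by 0.21 ± 0.17 and 0.19 ± 0.12.

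Psmd1, the other scaffold of the base, was the member whose response varied most between lines. Its vehicle levels ran from 7.12 over 8.93 to 9.77, and its TAK-875 levels from 7.61 over 9.06 to 9.90. The overall change of 0.13 ± 0.37 did not pass (adjusted p = 0.0715). It was higher in 29 lines and lower in 15. It passed with the study pair as a replicate block, each pair counted on its own (adjusted p = 0.0120), without replicate 3 and without the pairs of the poorly correlated arrays.

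The lid also rose in 7 of 8 genes, with a median change of 0.13. Psmd13 rose by 0.19 ± 0.19, Psmd14, the deubiquitinase that strips ubiquitin from substrates, by 0.16 ± 0.28, Psmd3 by 0.15 ± 0.13, Psmd8 by 0.15 ± 0.15, Psmd6 by 0.11 ± 0.21 and Psmd7 by 0.09 ± 0.14. Psmd12, a lid scaffold, ran from 6.67 over 8.52 to 9.28 in vehicle mice and from 7.39 over 8.62 to 9.50 in TAK-875 mice, with overlapping groups. It rose by 0.12 ± 0.29 (adjusted p = 0.0334), in 29 of 44 lines, and did not pass without replicate 1 or with quantile normalization. Psmd6 lost its call without the same replicate. Psmd11 changed by 0.01 ± 0.10 and did not pass (adjusted p = 0.599). Its dimmer probe set rose by 0.06 ± 0.15 in a separate limma fit of all 13083 single-gene probe sets (adjusted p = 0.0476).

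Over the 28 measured genes of the constitutive core, base and lid, 24 rose and 0 fell, and the median change was 0.15. All 28 means were above 0, and Psma4, Psmb7, Psmd1 and Psmd11 did not pass. Across lines, 980 of the 1232 values (28 genes in 44 lines) were above 0.

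**Figure D1:**
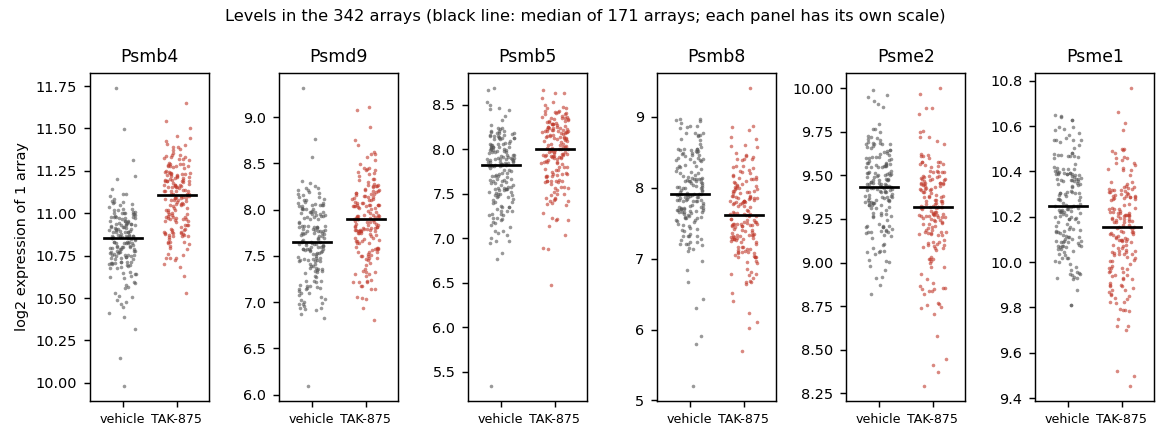
Each point is 1 array (log2 expression, vertical axis), with 171 vehicle and 171 TAK-875 mice per panel, and the black line is the median. Psmb4, Psmd9 and Psmb5 sit higher with TAK-875 and Psmb8, Psme2 and Psme1 lower, with groups that overlap in every panel.

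The immunosubunits went the other way. None of the 3 rose, 2 fell, and their median change was -0.10. Psmb8, the inducible chymotrypsin-like subunit, ran from 5.21 over 7.91 to 8.98 in vehicle mice and from 5.70 over 7.61 to 9.41 in TAK-875 mice. The groups overlapped, and the highest value of all came from a TAK-875 mouse. Psmb8 fell by 0.31 ± 0.29 on the log2 scale, or 1.24-fold (adjusted p = 3.0e-07), in 37 of 44 lines.

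Psmb10, the inducible trypsin-like subunit, ran from 7.94 over 8.83 to 9.64 in vehicle mice and from 7.29 over 8.77 to 10.14 in TAK-875 mice. TAK-875 mice held both the lowest and the highest value. Psmb10 fell by 0.10 ± 0.25 (adjusted p = 0.0320), in 28 of 44 lines, and did not pass without replicate 1, without replicate 4 or without the pairs of the poorly correlated arrays.

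Psmb9, the inducible caspase-like subunit, ran from 5.60 over 7.64 to 9.17 and from 5.72 over 7.60 to 9.56. Its change of -0.09 ± 0.31 did not pass (adjusted p = 0.160), and it was lower in 25 lines and higher in 19. A dimmer probe set of Psmb9 gave 0.02 ± 0.27, so its probe sets differed in direction, and without the pairs of the poorly correlated arrays the brighter one gave -0.03.

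Each immunosubunit was then set against the constitutive subunit whose place it takes, as the difference of their changes in each line, by a two-sided sign-flip permutation test with 100000 resamples over the 44 lines, adjusted over the 3 differences. The change of Psmb8 was below that of Psmb5 by a difference of -0.52 ± 0.35, in 42 of 44 lines (adjusted p = 3.0e-05, from a raw p of 1.0e-05, the smallest these permutations can give). For Psmb9 against Psmb6 the difference was -0.22 ± 0.30, in 33 lines (adjusted p = 4.5e-05). For Psmb10 against Psmb7 it was -0.14 ± 0.26, in 30 lines (adjusted p = 6.6e-04). The members of each couple thus responded differently in all 3 comparisons. These genes and their directions were known from earlier results of the same arrays when the couples were written down.

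**Figure D2:**
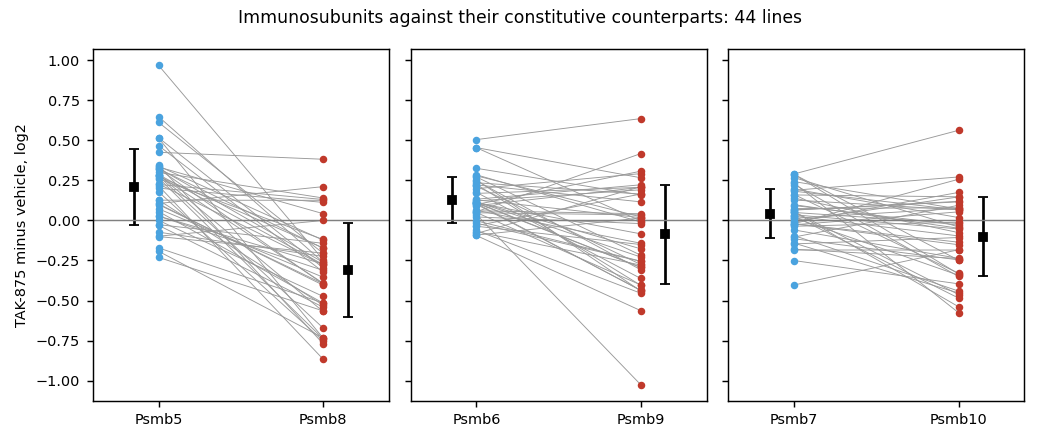
Each grey line joins, for 1 of the 44 lines, the change of a constitutive catalytic subunit (left, blue) and of its immunosubunit (right, red), in log2 TAK-875 minus vehicle. Squares and bars are the mean and SD over lines, and 42, 33 and 30 of the 44 lines slope downward in the panels from left to right.

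The PA28 activator, a ring of Psme1 and Psme2 that opens the core and is induced by interferon, fell in both genes. Psme2 ran from 8.82 over 9.43 to 9.99 in vehicle mice and from 8.29 over 9.32 to 10.0 in TAK-875 mice. Psme1 ran from 9.81 over 10.25 to 10.65 and from 9.45 over 10.15 to 10.77. For both, TAK-875 mice held the lowest and the highest value, and the groups overlapped. Psme2 fell by 0.14 ± 0.17 (adjusted p = 2.8e-05), in 37 lines, and Psme1 by 0.12 ± 0.16 (adjusted p = 2.7e-04), in 32.

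Psme3, which forms the nuclear activator, rose by 0.10 ± 0.17 (adjusted p = 0.00260), in 27 of 44 lines, but its dimmer probe set gave 0.01 ± 0.20 and did not pass. Psmf1, an inhibitor of the 20S core, gave -0.04 ± 0.17 and did not pass (adjusted p = 0.287). Over the 3 immunosubunits and the PA28 pair, 4 of 5 fell and 0 rose, with a median of -0.12. Without replicate 1, 3 members fell in place of 5.

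Of the assembly factors 4 of 6 measured genes rose, with a median change of 0.08. Psmd9, a chaperone of the base, ran from 6.10 over 7.65 to 9.31 in vehicle mice and from 6.81 over 7.90 to 9.11 in TAK-875 mice. The middle of the distribution lay higher with TAK-875 although the highest array was a vehicle mouse. Psmd9 rose by 0.24 ± 0.25 (1.18-fold, adjusted p = 2.3e-06), in 38 of 44 lines. Its other two probe sets, both much dimmer at mean vehicle levels of 4.87 and 4.16 against 7.65, gave 0.03 ± 0.23 and 0.03 ± 0.30 and did not pass.

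The chaperones of the alpha ring gave smaller values. Psmg4 rose by 0.10 ± 0.18 and Psmg3 by 0.08 ± 0.19, while Psmg1 and Psmg2 gave 0.02 ± 0.17 and 0.05 ± 0.22 and did not pass. Psmd5, another chaperone of the base, rose by 0.09 ± 0.23 (adjusted p = 0.0486). In the limma fit of all single-gene probe sets it did not pass (adjusted p = 0.0506). Its call was lost without replicate 1, 2 or 3, that of Psmg3 without replicate 2 or 3, and that of Psmg4 without replicate 4. With arrays centred on their medians, Psmd5, Psmg3 and Psmg4 did not pass, and with quantile normalization Psmd5 and Psmg3 did not. Of the genes that match by name, Psme3ip1 fell by 0.08 ± 0.21 (adjusted p = 0.0465), a call lost without replicate 1, 2 or 3 and without the pairs of the poorly correlated arrays. Psmc3ip gave -0.01 ± 0.24, with vehicle levels from 3.55 over 4.20 to 6.95 and TAK-875 levels from 3.52 over 4.21 to 6.78. Its arrays fell into a large low and a small high cluster in both treatments.

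**Figure D3:**
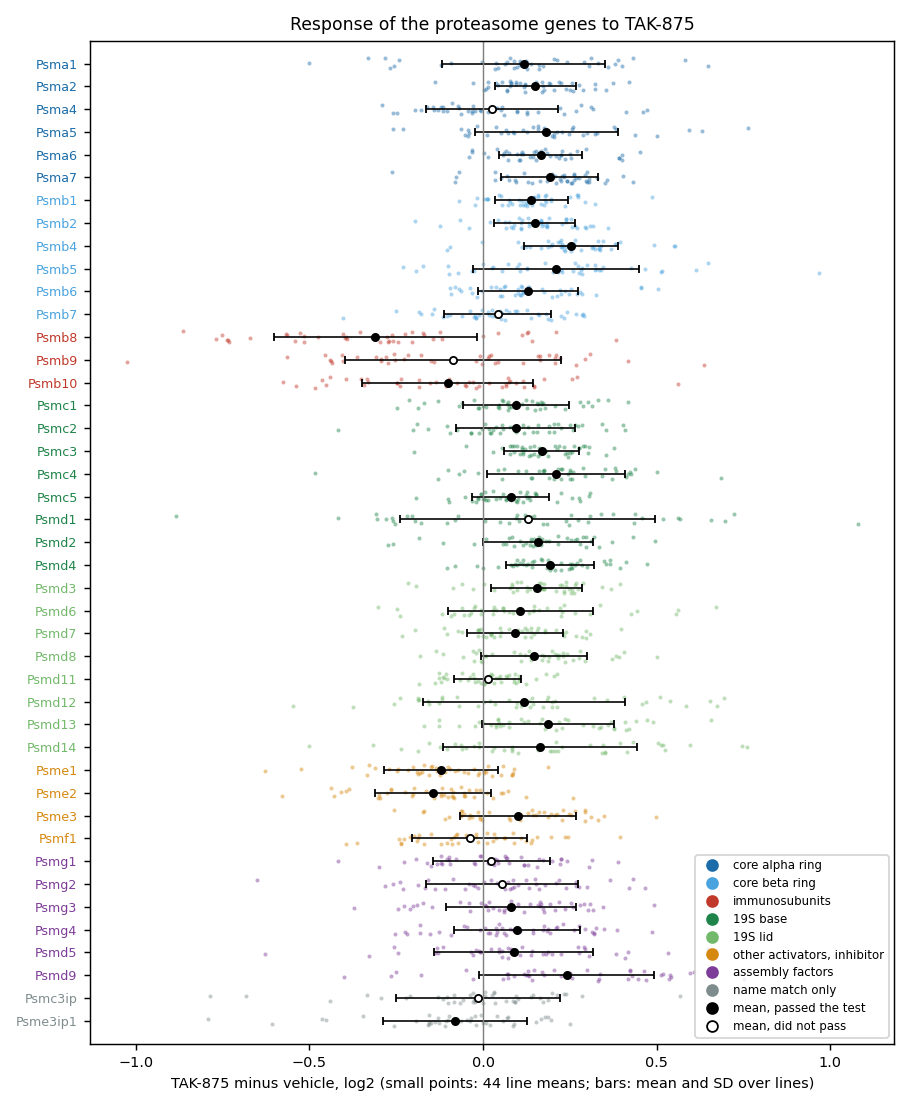
Small points are the 44 line means of TAK-875 minus vehicle (log2, horizontal axis) for each of the 43 genes, coloured by role, and black circles with bars are the mean and SD over lines, filled where the limma test passed. The core, base and lid genes sit right of 0, while Psmb8, Psmb10, Psme1 and Psme2 sit left of it, with line values on both sides of 0 for every gene.

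Other genes of the pathway were taken from a list of ubiquitin and proteasome partners that are not members. Of the 21 measured, 7 rose and 0 fell, against 15.2% and 11.8% of all genes, with a median change of 0.05. Zfand2a, a proteasome-associated protein induced by arsenite and other stresses that damage proteins, rose by 0.40 ± 0.35, in 39 of 44 lines. Ufd1 and Nploc4, which work together with the segregase Vcp to extract ubiquitinated proteins, rose by 0.21 ± 0.20 and 0.15 ± 0.15, and the shuttle receptor Ubqln2 by 0.12 ± 0.20. Pomp, which matures the 20S core, rose by 0.06 ± 0.12 (adjusted p = 0.0168). The mRNA of Nfe2l1 gave -0.00 ± 0.23 and did not pass (adjusted p = 0.945). Adrm1, a ubiquitin receptor of the base, was not analysed here.

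Of 17 measured antigen processing genes 4 fell and 0 rose, with a median change of -0.07. Over all genes 11.8% fell and 15.2% rose, 27.0% in either direction. The 4 that fell, H2-Ab1 (by 0.49 ± 0.43), H2-Eb1 (by 0.36 ± 0.40), Cd74 (by 0.36 ± 0.26) and H2-Aa (by 0.35 ± 0.31), are the class II chains and their invariant chain, which present peptides from outside the cell. The class I heavy chains that present proteasome products did not pass: H2-K1 gave -0.09 ± 0.32 and H2-D1 -0.02 ± 0.14. The count rose from 4 to 7 with quantile normalization.

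Most markers of macrophages fell as well. Of the 13 measured genes of the Kupffer cell and macrophage list, 11 fell and 0 rose, with a median change of -0.21. Their mean level ran from 6.01 over 6.89 to 8.58 in vehicle mice and from 5.18 over 6.70 to 8.02 in TAK-875 mice, with Timd4 the dimmest at 3.46 and Cd5l the brightest at 9.86. The mean change of the markers was -0.20 ± 0.24 and was below 0 in 37 of 44 lines. Of the other cell types, 1 of 2 B cell markers, 4 of 8 endothelial markers, 1 of 5 stellate cell markers and 2 of 2 red blood cell markers fell, and 0 of the T and NK cell (1 measured), neutrophil (4) and cholangiocyte (2) markers passed.

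Over the 44 lines, the change of each interferon-inducible member was set against the mean change of the 13 macrophage markers, in 5 relations with two-sided permutation p-values adjusted over the 5. Both quantities come from the same arrays. For Psmb10, Pearson's r was 0.41 (adjusted p = 0.0285) and Spearman's rho 0.42 (adjusted p = 0.0266). For Psmb8, r was 0.37 (adjusted p = 0.0324) and rho 0.33 (adjusted p = 0.0450). Both relations kept their size without the 2 lines farthest from the median marker change, at 0.45 and 0.42.

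For the other 3 genes, Pearson's r did not pass. For Psme2, r was 0.31 (adjusted p = 0.0693) and rho 0.34 (adjusted p = 0.0450), and r was 0.28 without those lines. For Psmb9, r was 0.16 (adjusted p = 0.358) and rho 0.26 (adjusted p = 0.110), and r was 0.36 without those lines. For Psme1, r was -0.02 (adjusted p = 0.918) and rho 0.04 (adjusted p = 0.819), and r was 0.10 without them. The part of the macrophage markers in the fall of these genes was not tested.

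The median change of the 28 core, base and lid genes was above 0 in 41 of 44 lines and ran from -0.07 in CC019/TauUnc to 0.35 in CC007/Unc. The median change of the 5 immunosubunit and PA28 genes was below 0 in 33 lines and ran from -0.58 in CC053/Unc to 0.38 in CC041/TauUnc. In 31 lines the former median was above 0 and the latter below.

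A moderated F test on the pair differences asked whether the response differed between lines, with 127 residual degrees of freedom. It called 8 of the 43 members, against 14.8% of all genes. These were Psmd13 (adjusted p = 0.00552), Psmd1 (0.00630), Psme1 (0.0175), Psmd9 (0.0340), Psmd12 (0.0406), Psmg4 (0.0425), Psme3ip1 (0.0455) and Psmc1 (0.0494). When the pairs of 1 replicate number were left out, 0 members passed without replicate 1, 2 or 3, and 3 without replicate 4. Those fits held fewer pairs for every gene, and the share of all genes that passed in them is not given here. In the fit of all pairs, Psmb8 and Psmb5 did not pass (adjusted p = 0.0656 and 0.890).

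Psmd1 separated lines most widely, with an SD between lines of 0.28. In CC005/TauUnc it changed by 0.51, 0.55, 1.46 and 1.79 in the 4 pairs, with a mean of 1.08 ± 0.65 (limma adjusted p within that line = 0.00227). In CC041/TauUnc it changed by -1.41, -1.18, -0.51 and -0.44, a mean of -0.88 ± 0.48 (adjusted p = 0.00832). All 4 pairs moved up in the former line and down in the latter.

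These lines were also at the ends of the vehicle levels of Psmd1. The vehicle mean was 7.90 in CC005/TauUnc, the lowest of the 44 lines, and 9.46 in CC041/TauUnc, the highest, while the TAK-875 means were 8.98 and 8.58. The response is computed from those vehicle arrays, so the level and the change are not independent measurements.

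Psmd12 followed Psmd1. In CC005/TauUnc it changed by 0.40, 0.44, 0.88 and 0.90, a mean of 0.65 ± 0.28, and in CC041/TauUnc by -1.12, -0.57, -0.38 and -0.11, a mean of -0.55 ± 0.43. Its highest line was CC007/Unc, at 0.69 ± 0.72. Among the 378 pairs of core, base and lid genes, the response of Psmd1 and Psmd12 over the 44 lines had the highest correlation, r = 0.93, and the pairs formed by Psmd1, Psmd6, Psmd12 and Psmd14 had r of 0.82 to 0.93. The choice of these 4 genes followed from their values. Their vehicle levels correlated by 0.76 to 0.84 over the same lines, and their responses by 0.72 to 0.90 with arrays centred. As all genes of a line share its libraries, these correlations are descriptions.

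Among all 378 pairs of core, base and lid genes the median r of the responses was 0.25, and 288 pairs were above 0. Among the 10 pairs of the immunosubunits, Psme1 and Psme2 it was 0.66, and all 10 lay between 0.42 and 0.75. Between the groups the median r was -0.17, but it was 0.15 with arrays centred on their medians, so the sign of that relation depended on the scaling.

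Within single lines, 60 of the 1892 tests of members (43 genes in 44 lines) passed, against 1.56% of all such tests over all genes. Of the 60 calls, 51 were rises and 9 falls, in 12 lines. The lines with the most calls were CC007/Unc with 13, CC052/GeniUnc with 13 and CC005/TauUnc with 11, where 4.53%, 11.0% and 10.9% of all genes were called. These 3 lines held 37 of the 60 calls. The total was 29, 30, 15 and 66 without replicates 1, 2, 3 and 4. The matching totals over all genes are not given here, so these counts do not describe the members alone.

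In CC007/Unc all 28 core, base and lid genes were above 0 and all 5 immunosubunit and PA28 genes below. Psmd14 rose by 0.75 ± 0.56 there, Psmd4 by 0.47 ± 0.09 and Psmd2 by 0.43 ± 0.04, while Psmb8 fell by 0.77 ± 0.73 and Psme1 by 0.63 ± 0.35. The line had 4, 5, 0 and 17 member calls without replicates 1 to 4 in turn and 5 with arrays centred. The median of its core, base and lid genes stayed between 0.35 and 0.39 over those leave-outs but was 0.26 with arrays centred.

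In CC052/GeniUnc the median of the core, base and lid genes depended on the third pair. Psmb5 changed by 0.14, 0.16 and 0.34 in 3 pairs and by 3.23 in the other, where the vehicle array read 5.34 and the TAK-875 array 8.58. Without replicate 3 the line had 0 member calls, and its core, base and lid median was 0.09 in place of 0.24. That setting drops the replicate from every line, and CC007/Unc had 0 calls in it too. The loss of calls therefore cannot be assigned to the third pair of CC052/GeniUnc. In CC005/TauUnc all 11 calls were rises, of Psma1, Psma2, Psma4, Psma5, Psma6, Psmc1, Psmc2, Psmd1, Psmd6, Psmd12 and Psmd14, and there were 0 without replicate 1 or 2, 6 without replicate 3 and 7 with arrays centred.

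CC041/TauUnc was the line with the highest value of all 3 immunosubunits. Psmb8 changed there by 0.16, 0.20, 0.50 and 0.67 in the 4 pairs, Psmb9 by 0.46, 0.64, 0.68 and 0.76, and Psmb10 by 0.35, 0.50, 0.68 and 0.73. Every pair was above 0 for all 3 genes, although none of them passed the test within that line. The means were 0.38 ± 0.24, 0.64 ± 0.13 and 0.56 ± 0.17. At the other end, Psmb8 was lowest in CC011/Unc, with pair values of -1.70, -0.86, -0.72 and -0.18, and Psmb10 in CC004/TauUnc at -0.58 ± 0.60. Psmb9 was lowest in CC053/Unc, where the 3 pairs gave -2.43, -0.37 and -0.28. The TAK-875 array of the lowest pair was among the 6 that correlated poorly with the other arrays of their line and dose.

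Of the 32 lines without any call, CC015/Unc, CC025/GeniUnc and CC019/TauUnc had the lowest median over the members. Their medians over the 43 genes were -0.07, -0.05 and 0.01, and 16, 16 and 23 of the genes were above 0. In CC019/TauUnc all 5 immunosubunit and PA28 genes were above 0 and 10 of the 28 core, base and lid genes were. The difference of these lines from the others was not tested for the members as a set.

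**Figure D4:**
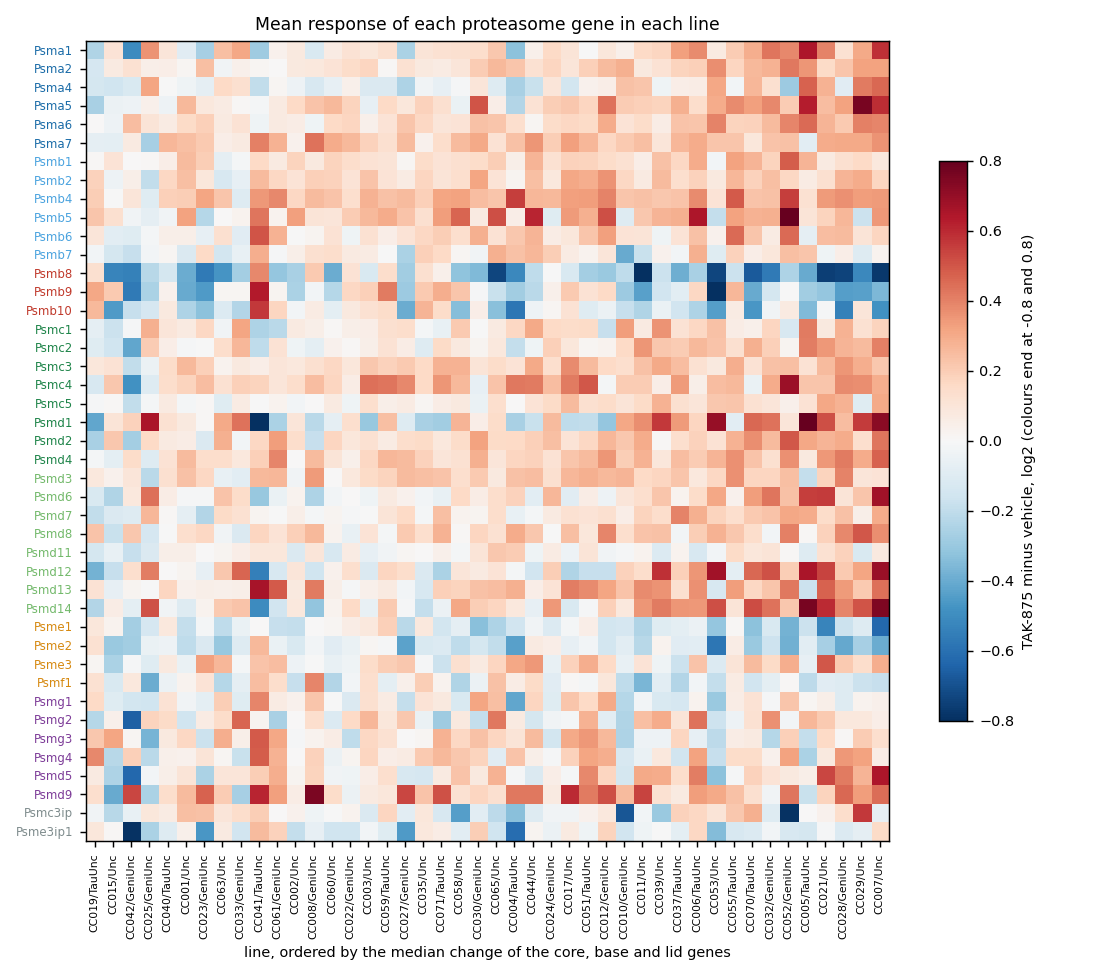
Colours give the mean TAK-875 minus vehicle change (log2) of each of the 43 genes (rows, by role) in each of the 44 lines (columns, ordered by the median of the core, base and lid genes). Rows of the core, base and lid are mostly red and the rows of Psmb8, Psme1 and Psme2 mostly blue, with CC041/TauUnc red for the immunosubunits and blue for Psmd1, Psmd12 and Psmd14.

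Without compound, the level of every member differed between lines: the F test on the 171 vehicle arrays called 43 of 43, but also 98.0% of all genes. The SD between lines was 0.18 for the median member and 0.25 for the median gene. It was lowest for Psma6, at 0.08, and highest for Psmc3ip, Psmb9 and Psmb8, at 0.76, 0.57 and 0.54.

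Psmb8 and Psmb9, neighbours in the major histocompatibility complex, shared their lowest lines. Psmb8 was lowest in CC008/GeniUnc at 5.80 ± 0.45 (SD, 4 mice), followed by CC071/TauUnc at 6.73, and highest in CC024/GeniUnc at 8.84 ± 0.18, with a median line of 7.92. The span of the measured signal from the lowest to the highest line was 8.19-fold. A single probe set measured Psmb8, and its probe sequences were not compared with the lines' genomes. The fall with TAK-875 was 1.24-fold as a mean over lines, and the log2 changes of single lines ran from -0.87 to 0.38. In vehicle mice the lowest line stood apart from the second by 0.92. Of the 43 pairs of neighbouring lines, 3 differed by more than the larger of their SDs.

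Psmb9 was lowest in the same pair of lines, CC008/GeniUnc at 5.99 ± 0.39 and CC071/TauUnc at 6.28, and highest in CC053/Unc at 8.98 ± 0.30. The next line above the lowest 2 was at 6.81. Psmb10, which lies elsewhere in the genome, was again lowest in CC071/TauUnc, at 8.00 ± 0.08, and then in CC008/GeniUnc, at 8.32, and highest in CC005/TauUnc, at 9.38 ± 0.14. In CC008/GeniUnc the 4 vehicle arrays of Psmb8 read 5.21, 5.79, 5.91 and 6.30 and the TAK-875 arrays 5.70, 6.02, 6.10 and 6.24, so the line stayed low after the compound. Over all 44 lines, vehicle and TAK-875 means correlated by 0.85 for Psmb8, 0.87 for Psmb9 and 0.61 for Psmb10.

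Among the constitutive subunits, Psmb7 had the widest spread, with an SD between lines of 0.42. Its line means fell into separate clusters: CC053/Unc at 8.35 ± 0.07, CC029/Unc at 8.48 and CC004/TauUnc at 8.49 lay below the other 41 lines, which began at 9.39 and reached 10.25 ± 0.11 in CC012/GeniUnc. The gap of 0.90 exceeded the SD of the lowest line. Vehicle and TAK-875 means correlated by 0.94 over lines. A single probe set measured Psmb7, and probe sequences were not compared with the lines' genomes here.

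Psmc3ip, a meiotic protein with low signal, was split as well. It lay between 5.70 and 6.27 in 9 lines (CC004/TauUnc, CC005/TauUnc, CC006/TauUnc, CC007/Unc, CC010/GeniUnc, CC015/Unc, CC017/Unc, CC037/TauUnc and CC060/Unc) and between 3.82 and 4.91 in the other 35. The lowest line was CC030/GeniUnc at 3.82 ± 0.19 and the highest CC004/TauUnc at 6.27 ± 0.46. The lines on either side of the gap had wide spreads, CC058/Unc at 4.91 ± 0.73 and CC010/GeniUnc at 5.70 ± 0.79. Of the 43 pairs of neighbouring lines for Psmc3ip, 1 differed by more than the larger SD. That was the pair at the gap, which was 0.792 wide against an SD of 0.787. The correlation of vehicle and TAK-875 line means was 0.95. Psmc3ip too was measured by a single probe set, whose sequences were not compared with the lines' genomes.

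Psmd1 behaved otherwise: its vehicle and TAK-875 line means correlated by 0.12, and those of Psmd12 by 0.20. For the base assembly factor Psmd9, vehicle levels ran from 6.83 ± 0.50 in CC008/GeniUnc to 8.56 ± 0.59 in CC015/Unc, and those lines gave the highest and lowest responses, 0.75 ± 0.59 and -0.40 ± 0.69. As for Psmd1, the responses are computed from those vehicle arrays, so level and change are not independent measurements. Psmb4 and Psmb6 were also highest in CC015/Unc, at 11.29 ± 0.40 and 11.04 ± 0.31. Psmb6 was lowest in CC052/GeniUnc at 9.93 ± 0.38, Psmb4 in CC023/GeniUnc at 10.51 ± 0.05, and Psmb5 in CC022/GeniUnc at 7.17 ± 0.31, against 8.37 ± 0.29 for Psmb5 in CC053/Unc. Psme2 ran from 8.93 ± 0.11 in CC008/GeniUnc, the line lowest for Psmb8 and Psmb9, to 9.79 ± 0.26 in CC024/GeniUnc, the line highest for Psmb8. Psme1 ran from 9.99 ± 0.12 in CC015/Unc to 10.52 ± 0.10 in CC005/TauUnc. Over the 10 pairs of these 5 interferon-inducible genes the median correlation of vehicle levels across lines was 0.53, against 0.28 for the 378 pairs of core, base and lid genes.

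**Figure D5:**
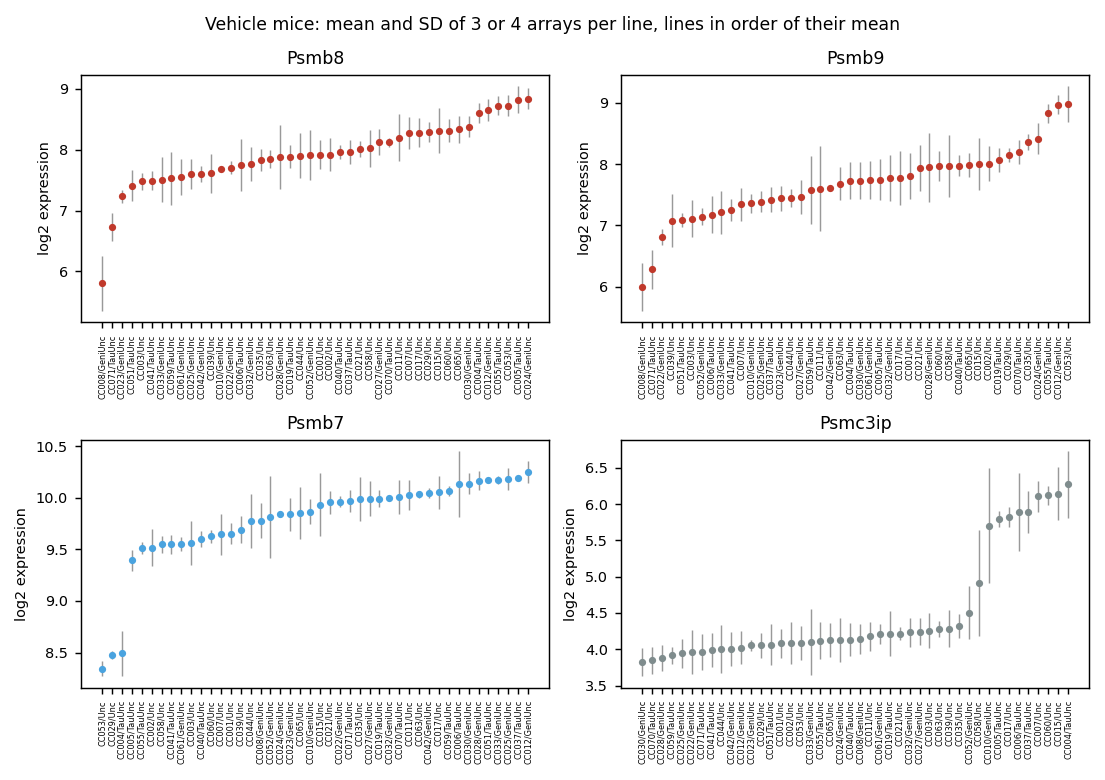
Points are the mean vehicle level (log2 expression) of each of the 44 lines, in order of their mean within each panel, and bars are the SD of the 3 or 4 vehicle mice. Psmb8 and Psmb9 are lowest in CC008/GeniUnc and CC071/TauUnc, Psmb7 has 3 lines set apart below 8.5, and 9 lines lie above 5.7 for Psmc3ip.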

How the data were processed

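The deposited values are on the log2 scale, 1 per probe set and array; the submitters' processing notes name RMA and Affymetrix Power Tools, without versions. Scanner signals were not used, and no filter on detection was applied.

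Of 16397 probe sets, 13083 name 1 gene in the platform table. Where several sets named the same gene, the one brightest on average over the arrays was kept, which left 9093 genes. Results of the other probe sets come from a separate limma fit of all 13083 sets, adjusted over those sets. All genes were fitted together with limma 3.58.1 in R 4.3.3 (lmFit, eBayes with trend, two-sided, Benjamini-Hochberg adjusted p of 0.05): line means of pair differences against 0, a moderated F test between lines, coefficients within lines, and vehicle levels between lines. The line was the unit, since mice of a line share a genotype. The SD between lines excludes the sampling variance within lines. The fits were tested on simulated data.

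The members, their grouping, the gene lists and the tests were chosen with earlier results of these data known. Array values are given for the 3 largest rises, the 3 lowest changes, the catalytic couples, and the 3 largest SDs of response and of vehicle level between lines. Lines named are those with most and fewest calls and those at the ends for a described gene.

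The study pairs come from the labels, which say that mice were treated in pairs. Deviations of same-pair arrays correlated by 0.0361 on average, against -0.0117 for other arrays of the line. Permutations, correlations and figures used Python 3.11.15, numpy 2.4.6, pandas 2.3.3 and matplotlib 3.10.9. Alternatives were other scalings, all probe sets averaged, the dimmest 25% of genes left out, no variance trend, no cross-hybridising probe sets, each replicate left out, the pair as a replicate block or ignored, and, added after seeing the data, pairs with an array below a correlation of 0.92 left out. Promoters come from the RefSeq table of GRCm38.p6.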

Additional observations from a re-analysis of the deposited data

Results flagged for a closer look

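Among 46 groups of 4 mice or pairs examined, 3 held a value far from the others, and chance marks about 1 group in 20. Psmb5 changed by 3.23 in 1 pair of CC052/GeniUnc, against 0.14 to 0.34 in its other pairs. Psme2 read 9.39 in 1 vehicle mouse of CC024/GeniUnc, against 9.89 to 9.95 in the others. Psmc3ip read 6.95 in 1 vehicle mouse of CC004/TauUnc, against 5.98 to 6.10.

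The response of 8 of the 43 members differed between lines in the limma F test, against 14.8% of all genes. The adjusted p was 0.00552 for Psmd13, 0.00630 for Psmd1, 0.0175 for Psme1, 0.0340 for Psmd9, 0.0406 for Psmd12, 0.0425 for Psmg4, 0.0455 for Psme3ip1 and 0.0494 for Psmc1. The dimmer probe set of Psmd11, which the comparison did not use, rose by 0.0614.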

How the results depend on the processing

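Over 13 alternatives, 28 to 35 of the 43 members were called, against 34. Of the 34 called members, 25 kept their call in every alternative that measured them, 9 lost it in at least 1, and 3 others (Psmd1, Psmg1 and Psmg2) passed in at least 1. Leaving out replicates in turn gave 25 to 28 members higher and 3 to 4 lower, 0 to 3 whose response differed between lines, and 15 to 66 calls within lines. Without the pairs with a poorly correlated array, 3 members were lower and the response of 13 differed between lines. The shares over all genes are not given here for these leave-outs. With the study pair as a replicate block 35 members were called, and 35 with no replicate block. The antigen processing genes called were 7 with quantile normalization, 7 with the study pair as a replicate block and 7 with no replicate block, and the partner genes called were 11 with no replicate block. Among members that did not pass, Psmd11 changed sign with arrays centred on their medians (-9.0e-04) and with quantile normalization (-5.0e-04), Psmf1 ran from -0.0619 to 0.00611 and Psmc3ip from -0.0400 to 0.00627 over the replicates left out. The cause was not tested. All 3 couples kept their sign and passed in all alternatives run for them. The median change of all genes was 0.01, and it was -0.01 with arrays centred and -0.01 with quantile normalization. Rises made up 56.2%, 43.9% and 46.0% of all calls, and 26 members rose and 5 fell under either other scaling. Leaving out the dimmest genes removed 1 member. The number of arrays limits precision.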
